A study of Mus musculus with 48 samples.

Results

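H3K27ac, the acetylated form of histone H3 found at enhancers and promoters in use, was compared between the border zone (BZ), the strip of myocardium next to the infarct, and the remote zone (RZ), the myocardium away from it, in macrophages of P10 mouse hearts after myocardial infarction (MI). The comparison held 8 of the 48 labelled samples: 4 BZ libraries and 4 RZ libraries, taken by their titles, with 2 of each at 3 days (P10-MI_3D, replicates 2 and 3) and 2 of each at 7 days (P10-MI_7D, replicates 1 and 2). A BZ and an RZ library with the same day and replicate number formed a pair, which gave 4 pairs. The mice were C57BL/6, the left anterior descending artery was tied at postnatal day 10, and per the methods the same zone of several hearts was pooled and both sexes were used. Of the 48 samples, 42 were H3K27ac libraries of 24 groups, made of surgery at P1 or P10, MI or sham, 3 or 7 days, and 3 zones including the infarct zone (IZ), and the other 6 were not used here. Sham hearts went through the operation without the ligation and were cut into the same zones. CD45+F4/80+ cells were sorted and profiled by CoBATCH, a tagmentation method in which an antibody-bound Tn5 enzyme cuts near the mark in barcoded cells. The files name no cell, so a library was read as the sum of its cells, and a smaller share of a cell type and less signal per cell cannot be told apart.

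Cardiac macrophages fall into long-lived resident cells and cells that derive from blood monocytes recruited after injury. Resident macrophages carry scavenger receptors such as LYVE1, CD206 (Mrc1) and CD301 (Mgl2) and the transcription factor MAF, and they clear debris and dying cells. Recruited monocytes bring LY6C and the calprotectin subunits S100A8 and S100A9, which granulocytes also make in large amounts, and later take on macrophage programs of phagocytosis and repair. The BZ is where surviving cardiomyocytes meet the infarct, and a comparison with the RZ asks which of these programs stood near the injury.

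The sequences shown here are the 200 bases with the most read pairs in 4 of the regions that the results return to, chosen because they lie in regions that cover genes of recruited cells (Clec4d and Lgals3), before the start of the resident macrophage gene Mrc1, and in the region with the most pairs of the window of Mgl2, another gene of resident macrophages, whose nearest gene start is that of Asgr2. They were read 5′ to 3′ from the plus strand of GRCm38, and the capitals mark matches on either strand to the AP-1 motif TGANTCA, the C/EBP motif TTGCNNAA or the MAF motif TGCTGAC.
Clec4d, between genes, chr6:123252751-123252950: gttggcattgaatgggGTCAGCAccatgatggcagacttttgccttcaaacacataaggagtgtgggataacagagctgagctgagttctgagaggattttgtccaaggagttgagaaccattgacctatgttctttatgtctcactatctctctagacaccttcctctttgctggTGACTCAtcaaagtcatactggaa
Lgals3, intron, chr14:47374401-47374600: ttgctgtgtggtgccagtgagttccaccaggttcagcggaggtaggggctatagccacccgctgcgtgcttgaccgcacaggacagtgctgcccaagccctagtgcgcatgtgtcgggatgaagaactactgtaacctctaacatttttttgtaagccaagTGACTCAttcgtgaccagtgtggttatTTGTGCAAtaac
Mrc1, just before its start, chr2:14229151-14229350: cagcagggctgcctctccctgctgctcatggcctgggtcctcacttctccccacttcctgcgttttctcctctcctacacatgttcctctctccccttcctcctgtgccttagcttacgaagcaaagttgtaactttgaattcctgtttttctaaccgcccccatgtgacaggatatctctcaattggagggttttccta
Asgr2, between genes in the Mgl2 window, chr11:70084551-70084750: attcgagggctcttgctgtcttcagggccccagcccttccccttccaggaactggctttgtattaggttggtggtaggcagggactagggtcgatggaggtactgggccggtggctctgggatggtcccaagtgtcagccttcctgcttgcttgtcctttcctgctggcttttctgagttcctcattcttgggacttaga
Of the 26699 region cores of this length clear of UTRs, 7.05% held an AP-1 match, 7.41% a C/EBP match and 4.03% a MAF match. The Clec4d core held an AP-1 match and a MAF match, the Lgals3 core an AP-1 and a C/EBP match, and the Mrc1 and Asgr2 cores none of these 3. A match describes letters only and says nothing of a bound factor.

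The libraries of the comparison held between 137589 and 1008924 unique read pairs, with the fewest in the P10-MI_3D RZ library of replicate 3 and 257633 in the P10-MI_3D BZ library of replicate 2. A single pair was worth 14.6 CPM, counts per 1000000 TMM-scaled pairs in regions, in the first and 9.76 CPM in the second, and a count of 0 there allowed up to 43.8 and 29.3 CPM by counting error alone. Read pairs and the share inside H3K27ac regions did not separate the zones: the share was 46.9% ± 3.73 (SD, n = 4) in the BZ and 47.9% ± 8.39 (n = 4) in the RZ and was higher in the BZ in 1 of 4 pairs (exact sign-flip permutation test over pairs, two-sided, p = 0.625, the smallest p that 4 pairs allow is 0.13). By pair it was 41.7% against 54.3% and 48.6% against 50% at 3 days, and 50.4% against 51.8% and 46.8% against 35.6% at 7 days. The BZ and RZ libraries of a pair lay on the same flow cells, as did the sham libraries of the same number. The Y-linked share, which should be alike in zones of the same hearts, was 0.0124% (exact 95% interval 0.0101 to 0.0152) in the BZ and 0.0363% (0.0270 to 0.0479) in the RZ of P10-MI_3D replicate 3, intervals that did not overlap. In P10-MI_7D replicate 2 it was 0.0141% (0.0108 to 0.0181) in the BZ and 0.00769% (0.00529 to 0.0108) in the RZ, intervals that met at their ends. The other pairs, at 0.00349% against 0.00520% (P10-MI_3D replicate 2) and 0.00350% against 0.00347% (P10-MI_7D replicate 1), had intervals that overlapped. Whether the zones of a pair came from the same hearts was not tested.

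Marks of the sorted population were in place. Over all read pairs, the median density per kb relative to the median gene window was 3.78 at Ptprc (CD45), 2.99 at Adgre1 (F4/80), 8.69 at Csf1r, the receptor for the macrophage growth factor, 7.30 at C1qa and 6.33 at Lyve1. Of 13 markers of cardiomyocytes, fibroblasts, endothelium and other non-leukocytes, 1 (Pecam1, 5.98) was above 2, and the other 12 lay between 0.246 and 1.1. Of 10 lymphocyte markers, Cd79a (3.5) and Ms4a1 (2.73) were above 2.

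No gene window passed the test for the mean BZ minus RZ difference over both days. A window ran from 50 kb before a gene to 30 kb behind it and counted the read pairs inside H3K27ac regions, so neighbouring genes share pairs. At an adjusted p under 0.05, limma voom called 0 of 10584 windows tested (percent called 0, of 21938 windows in all), against 622 (5.88%) at an unadjusted p under 0.05, and limma-trend also called 0, with 885 at an unadjusted p under 0.05. Over the regions themselves, which do not overlap, 0 of 13241 tested (of 27160) were called, against 689 (5.2%) at an unadjusted p under 0.05, and limma-trend called 0, with 880. BZ was above RZ in all 4 pairs in 755 windows (7.13%) and below it in all 4 in 824 (7.79%).

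The median absolute log2 difference over all windows was 0.251 at 3 days and 0.153 at 7 days, from 2 pairs each. The 3-day libraries include the 2 shallowest of the comparison (137589 and 257633 pairs), and the part of depth in this difference was not tested. Over both days, from 4 pairs each, it was 0.148 after MI and 0.133 for the same cut in sham hearts. At 3 days limma voom called 4 windows (0.0378%), with 869 (8.21%) at an unadjusted p under 0.05, while limma-trend called 53. At 7 days it called 0, with 258 (2.44%) at an unadjusted p under 0.05, and limma-trend called 0, with 221. Over regions limma voom called 0 at 3 days, with 874 (6.6%) at an unadjusted p under 0.05, 0 at 7 days, with 388 (2.93%), and 0 for the difference between days, with 700 (5.29%), while limma-trend called 16, 0 and 0, with 1451, 379 and 899. Without the P10-MI_3D BZ library of replicate 3, limma voom called 16 regions at 3 days, all higher in the BZ, and 2 for the difference between days.

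The windows called at 3 days were Fam184a, Gas6 and Lrp6, lower in the BZ (0.0283% of all windows), and Pom121l2, higher in the BZ (0.00945%). Gas6, the ligand of the receptor tyrosine kinases that macrophages use to engulf dying cells, lies at chr8:13465374-13494490 (GRCm38). Its window read 0 and 33.3 CPM in the P10-MI_3D BZ libraries of replicates 2 and 3, against 111 and 117 CPM in the RZ. The fitted log2 difference at 3 days was −3.17 (SE 0.612, limma adjusted p = 0.0152). At 7 days the window read 93.6 and 117 CPM in the BZ and 70.2 and 86.7 CPM in the RZ. Fam184a (chr10:53633145-53751123) read 0 and 30.5 CPM in the BZ against 87.0 and 131 CPM in the RZ at 3 days, a log2 difference of −3.21 (SE 0.568, limma adjusted p = 0.00566). Its window held regions of the neighbouring Mcm9, a helicase gene of DNA repair, and none at its own start.

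Lrp6, a co-receptor of Wnt signalling (chr6:134446476-134566965), read 0 and 125 CPM in the BZ and 195 and 292 CPM in the RZ at 3 days, a log2 difference of −2.82 (SE 0.586, limma adjusted p = 0.0317). Pom121l2 (chr13:21981194-21988734) read 68.3 and 66.5 CPM in the BZ and 13.9 and 0 CPM in the RZ, a log2 difference of 2.81 (SE 0.552, limma adjusted p = 0.0152). All 4 calls rested on a 0 in 1 of the 2 shallow libraries: the lower 3 on the BZ library of replicate 2, and Pom121l2, with 4 and 0 pairs in the RZ, on the RZ library of replicate 3. Left out in turn, 8 libraries cost Lrp6 its call in 7 fits, Gas6 in 3, Fam184a in 2 and Pom121l2 in 2. Without the BZ library of replicate 2 at 3 days, the fitted log2 difference was −0.39 for Lrp6, −0.90 for Gas6 and −2.07 for Fam184a. Because the IZ libraries take part in the fit, these values are not those of the pair that remains. In that pair, replicate 3, Lrp6 read 125 CPM in the BZ and 292 CPM in the RZ. With all pairs in the window counted, none of the 4 was called, and the log2 differences were −1.12 for Lrp6, −1.43 for Gas6, −0.47 for Fam184a and 1.67 for Pom121l2.

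**Figure D1:**
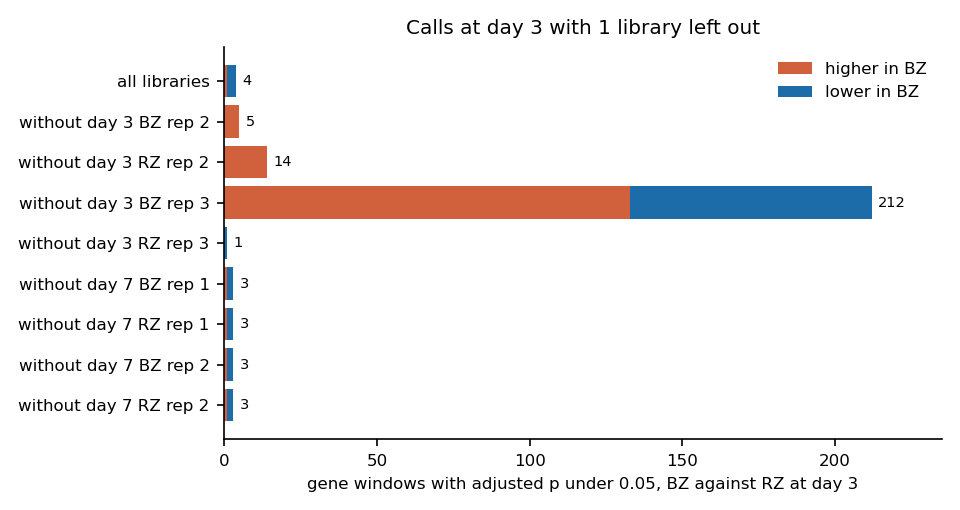
Number of gene windows called at 3 days (adjusted p under 0.05, limma voom), higher and lower in the BZ as stacked bars, with all libraries and with each of the 8 libraries left out. The count was 4 with all libraries, 1 without the RZ library of replicate 3 and 212 without the BZ library of replicate 3, both at 3 days.

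Which library was left out set the size of the 3-day count. It was 212 (133 higher, 79 lower) without the P10-MI_3D BZ library of replicate 3, 14 without the RZ library of replicate 2 and 5 without the BZ library of replicate 2, all higher in the BZ, and 1 without the RZ library of replicate 3. In the mean over both days, 58 windows (15 higher, 43 lower) were called without the BZ library of replicate 3 at 3 days. In these fits a lone 3-day BZ or RZ library is taken to vary like the other groups, and the IZ libraries of the same numbers take part in the estimate.

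Most genes of resident macrophages had lower values in the BZ than in the RZ at 3 days. The list was chosen with earlier results of these data known, so its counts are a description and not a test. Of the 14 members of the list, 13 passed the count filter. Of these, 11 had a 3-day log2 difference below 0 (beside 51.3% of all windows) and 2 above it. At an unadjusted p under 0.05, 5 were lower and 1 higher (beside 3.89% and 4.32% of all windows), and 0 were called. In the mean over both days, 6 were lower and 1 higher at an unadjusted p under 0.05, beside 5.88% of all windows in either direction. The members described singly below all had a mean below 0, and the 2 above 0 in the mean are not among them. The member that was higher at an unadjusted p under 0.05 is thus not described singly, and the members below do not stand for the whole list. The list median was −0.71 at 3 days and −0.09 at 7 days, beside −0.01 and 0.00 over all windows. Over both days it was −0.27 after MI and −0.13 in sham hearts, with 11 of 13 members below 0 in each. By pair, the medians after MI were −1.25 and −0.62 at 3 days (replicates 2 and 3) and −0.05 and −0.11 at 7 days (replicates 1 and 2). Summed over the 13 windows, the BZ held 2830 and 3441 CPM at 3 days and the RZ 4693 and 4904 CPM, so the zones did not overlap. The IZ held 4787 and 2236 CPM at 3 days (replicates 2 and 3). It thus lay above the BZ and the RZ in replicate 2 and below both in replicate 3. At 7 days the BZ held 5121 and 5307 CPM and the RZ 5288 and 5725 CPM, and the BZ value of replicate 2 lay above the RZ value of replicate 1. In sham hearts at 3 days the BZ held 3724 and 5594 CPM and the RZ 4815 and 5292 CPM (replicates 2 and 3). Without the P10-MI_3D BZ library of replicate 2 the fitted 3-day median was −0.04, and without the BZ library of replicate 3 it was −1.40. The IZ libraries take part in these fits, here and for the genes below, so their values are not those of the pair that remains. The median of the pair of replicate 3 was −0.62 and that of replicate 2 was −1.25.

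**Figure D2:**
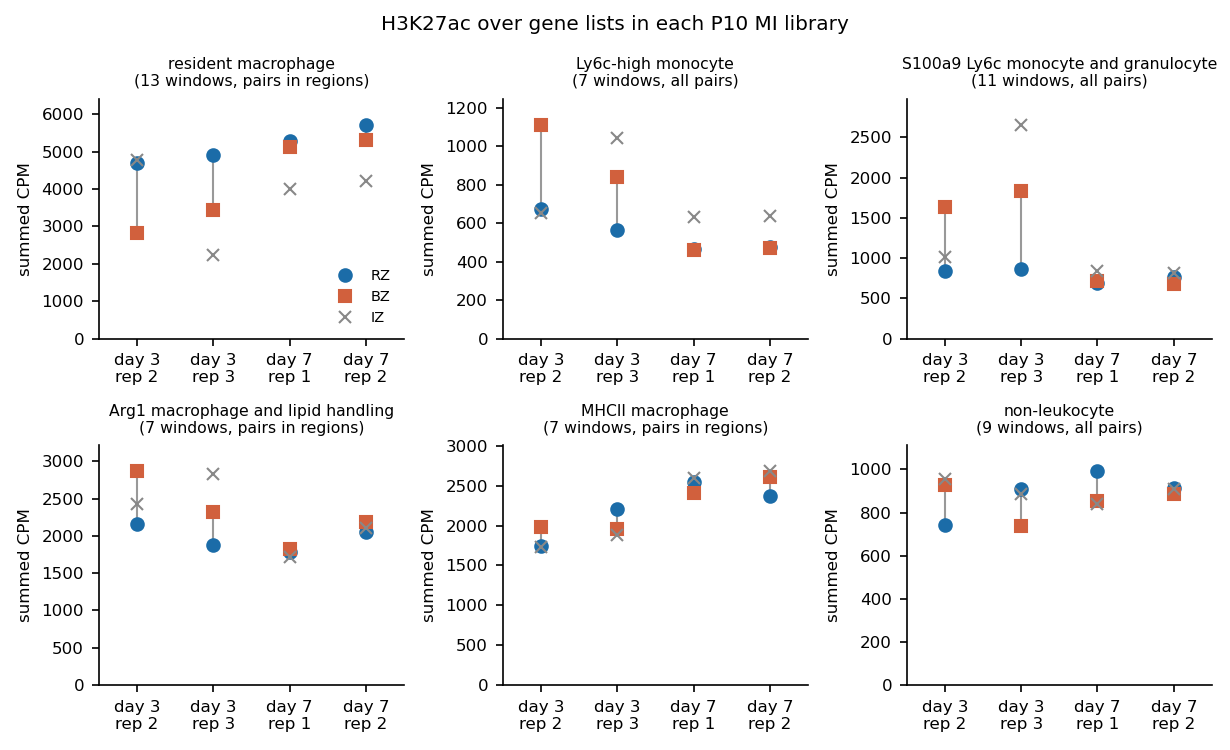
Summed CPM of 6 gene lists in the RZ, BZ and IZ library of each of the 4 MI pairs (lines join the zones of a pair). The resident macrophage sum was lower in the BZ than in the RZ in both 3-day pairs (2830 against 4693 and 3441 against 4904 CPM), and the S100a9 sum was higher (1635 against 834 and 1838 against 865 CPM), while the 7-day pairs lay close together.

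Mgl2 (chr11:70130329-70137550), which encodes a galactose-binding lectin of alternatively activated macrophages, was lower in the BZ in 4 of 4 pairs. It read 9.76 and 103 CPM in the BZ at 3 days and 192 and 260 CPM at 7 days, against 164 and 175 CPM and 272 and 294 CPM in the RZ. The mean log2 difference was −1.05 (SE 0.271, limma adjusted p = 0.414), with −1.72 at 3 days and −0.38 at 7 days, and 0.07 in sham hearts. Leaving out the BZ library of replicate 2 at 3 days moved the mean to −0.41, and leaving out that of replicate 3 moved it to −1.98, where it was called. The 9.76 CPM was a single read pair. The sequence shown for its window belongs to chr11:70079501-70088000, the region with the most pairs, whose nearest start is that of the neighbouring Asgr2. That region had a log2 difference of −0.90, and the region at the start of Mgl2 itself had −0.11.

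Maf (chr8:115682942-115707794), the transcription factor of self-renewing resident macrophages, read 9.76 and 83.2 CPM in the BZ and 108 and 234 CPM in the RZ at 3 days. At 7 days it read 120 and 112 CPM in the BZ and 120 and 207 CPM in the RZ. The BZ was below the RZ in 3 of 4 pairs, and the mean log2 difference was −1.09 (SE 0.278, limma adjusted p = 0.411). It was −0.68 without the BZ library of replicate 2 at 3 days, without that of replicate 3 it was −1.70, where it was called, and on all pairs in the window it was −0.57. Mrc1 and Fcrls, described next, were chosen after their values were seen.

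Mrc1, the mannose receptor CD206, read 244 and 421 CPM in the BZ and 720 and 642 CPM in the RZ at 3 days, and 631 and 842 CPM against 687 and 974 CPM at 7 days. The BZ was lower in 4 of 4 pairs, with a mean log2 difference of −0.47 (SE 0.155, limma adjusted p = 0.718), which became −0.15 without the BZ library of replicate 2 at 3 days and −0.88 without that of replicate 3, where it was called. The region at its start, chr2:14227001-14252500, whose core is printed above, was among the 5 lower regions ranked first, with 91.9, 208, 356 and 450 CPM in the BZ and 407, 311, 399 and 606 CPM in the RZ (log2 difference −0.61, SE 0.188, limma adjusted p = 0.91). Without the BZ library of replicate 2 at 3 days, the range over left-out libraries reached −0.12 for that region. Tmem236, the named window next to it (−0.48), counts the same region.

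Lyve1, the hyaluronan receptor that marks resident macrophages, read 166, 236, 321 and 276 CPM in the BZ and 344, 379, 362 and 387 CPM in the RZ. It was lower in 4 of 4 pairs, with a log2 difference of −0.42 (SE 0.183, limma adjusted p = 0.81). Cbr2, a carbonyl reductase gene of the same cells, was also lower in 4 of 4 pairs (−0.47, SE 0.22), as was Fcrls, an Fc receptor-like gene (−0.66, SE 0.257). C1qa, a complement subunit gene, was lower in both 3-day pairs and in 1 of the 2 7-day pairs, and its log2 difference was −0.71 at 3 days and 0.18 at 7 days. Dab2, an endocytic adaptor, differed by −0.15 (SE 0.151). The means were −0.19 for Lyve1, −0.0839 for Cbr2, −0.33 for Fcrls, 0.07 for C1qa and 0.11 for Dab2 without the BZ library of replicate 2 at 3 days, and without that of replicate 3 the first 4 were −0.71, −0.92, −1.19 and −0.61.

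**Figure D3:**
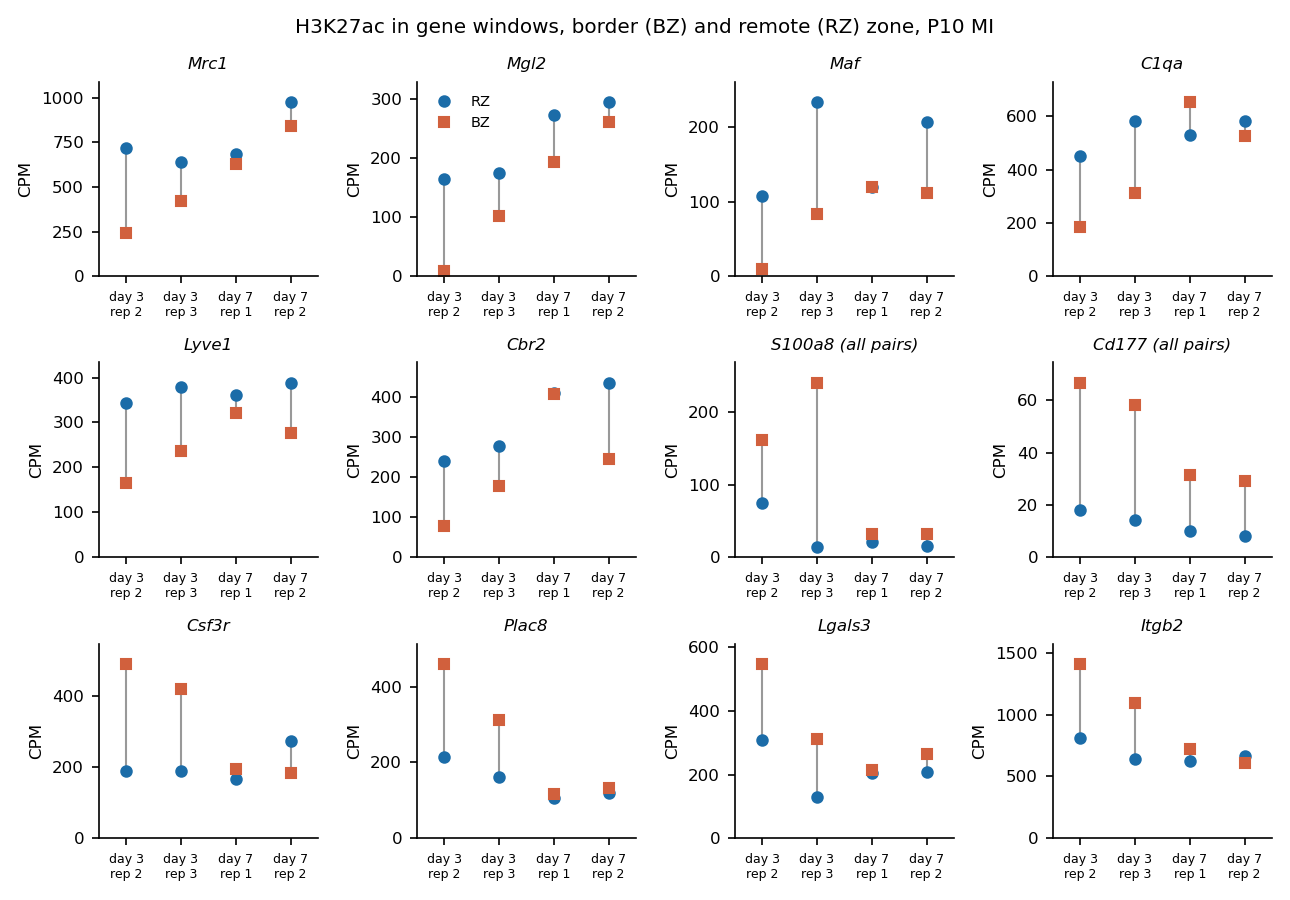
CPM of 12 genes in the RZ and BZ library of each MI pair (S100a8 and Cd177 on all pairs in the window, the others on pairs in regions). Mrc1, Mgl2, Lyve1 and Cbr2 lay lower in the BZ than in the RZ in all 4 pairs, S100a8, Cd177, Plac8 and Lgals3 lay higher in all 4, and most of the spread was at 3 days.

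Genes of recruited monocytes and granulocytes had higher values in the BZ at 3 days. On all pairs in the window, 11 of 11 members of the S100a9 list were above 0, beside 51.0% of all windows below 0. That list too was chosen with earlier results of these data known, so its counts are a description and not a test. The windows of S100a8 and S100a9 overlap and share pairs, so the members are not separate observations. Only 5 of the 11 members of the S100a9 list held enough pairs in regions, so the list was read on all pairs in each window, where all 11 were tested and 0 were called. Of these, 4 were higher and 0 lower at an unadjusted p under 0.05 in the mean, and 6 and 0 at 3 days. Of the 16354 windows tested in this way, 3.01% were higher and 2.89% lower in the mean, and 4.5% and 3.67% at 3 days. The list median was 0.79 at 3 days and 0.04 at 7 days. Over both days it was 0.33 after MI, with 10 of 11 members above 0, and 0.25 in sham hearts, with 8 of 11 above 0. Over the 5 members with enough pairs in regions the 7-day median was −0.02, with 3 of 5 below 0, and the 3-day median was 0.29. By pair, the 3-day medians of these members were 0.75 and 0.66 (replicates 2 and 3). The fitted 3-day median was 0.05 without the BZ library of replicate 2 at 3 days and 1.08 without that of replicate 3. The IZ libraries take part in these fits, so their values are not those of the pair that remains. Summed, the BZ held 1635 and 1838 CPM at 3 days and the RZ 834 and 865 CPM. The IZ held 1017 and 2659 CPM, so in replicate 2 the BZ was above the IZ and in replicate 3 below it. At 7 days the BZ held 717 and 678 CPM and the RZ 688 and 766 CPM, and the zones overlapped. In sham hearts at 3 days the BZ held 870 and 798 CPM and the RZ 661 and 736 CPM (replicates 2 and 3). The sum was thus higher in the BZ in both sham pairs of that day too.

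S100a8 (chr3:90668978-90670035), a calprotectin subunit gene, read 162 and 239 CPM in the BZ at 3 days, and 74.6 and 14.4 CPM in the RZ. At 7 days it read 31.5 and 31.6 CPM against 21 and 16.2 CPM. It was higher in 4 of 4 pairs with a mean log2 difference of 1.04 (SE 0.43, limma adjusted p = 0.829), and S100a9, whose window overlaps it, differed by 0.99 (SE 0.495). The lowest values were a few read pairs each, since 1 pair was worth 7.21 CPM in the shallow RZ library.

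Cd177, a neutrophil surface glycoprotein gene that sits in 2 of the lists, was higher in 4 of 4 pairs at both days. It read 66.4, 58.1, 31.5 and 29.1 CPM in the BZ and 18.2, 14.4, 10.1 and 8.12 CPM in the RZ. On all pairs, 6.26% of windows were higher in all 4 pairs and 7.14% lower. The log2 difference was 1.57 (SE 0.438, limma adjusted p = 0.8), with 1.5 at 3 days and 1.64 at 7 days, and 0.52 in sham hearts. Csf3r, the receptor for granulocyte colony-stimulating factor, was read on pairs in regions, so its CPM are not on the scale of S100a8 and Cd177. At 3 days it read 488 and 419 CPM in the BZ and 188 and 190 CPM in the RZ. At 7 days it read 195 and 184 CPM in the BZ and 166 and 274 CPM in the RZ. Its log2 difference was 1.05 (SE 0.305) at 3 days and −0.02 (SE 0.259) at 7 days. Over both days it was 0.52, or 0.32 on all pairs. Cxcr2, the chemokine receptor of neutrophils, was read on all pairs. It had 145 and 170 CPM in the BZ and 29.1 and 79.3 CPM in the RZ at 3 days (log2 difference 1.32, SE 0.468). In sham hearts its BZ minus RZ difference was 0.66, close to the mean of 0.68 after MI.

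The Ly6c-high monocyte list, of which 3 of 7 members were tested in regions and all 7 on all pairs, had 0 called and medians of 0.55 at 3 days and 0.09 at 7 days on all pairs. Over both days the median was 0.31 after MI and 0.38 for the same cut in sham hearts. Summed on all pairs, the sham BZ at 3 days held 779 and 416 CPM and the sham RZ 307 and 462 CPM (replicates 2 and 3). Over the 3 members tested in regions, the 3-day median of 0.80 was 0.37 without the P10-MI_3D BZ library of replicate 2 and 1.25 without that of replicate 3. By pair, their 3-day medians after MI were 1.09 and 0.91 (replicates 2 and 3). Plac8, a gene of inflammatory monocytes, was read on pairs in regions. It had 459, 313, 118 and 133 CPM in the BZ and 216, 161, 107 and 120 CPM in the RZ. It was higher in 4 of 4 pairs (log2 difference 0.47, SE 0.216, and 0.26 without the BZ library of replicate 2 at 3 days), and in sham hearts the difference was 0.78. On all pairs Plac8 differed by 0.30 after MI. Ly6c2, which encodes LY6C itself, was read on all pairs. It was higher in 4 of 4 pairs with 87.2, 70.0, 32.8 and 38.9 CPM against 43.7, 36.1, 31.1 and 32.5 CPM (0.43, SE 0.311). Of the Ly6c-low monocyte list, 6 of 7 members were tested with 0 called and a median of 0.35 at 3 days and −0.04 at 7 days. Scaled to all pairs the 3-day median was 0.09, and leaving out 1 library gave 0.24 to 0.49. Its Treml4, a receptor gene of patrolling monocytes, differed by 0.66 (SE 0.285) after MI and 0.79 in sham, Cd300ld by 0.28 (SE 0.147) and Ace, read on all pairs, by 0.10 (SE 0.404). With 1 library left out, Treml4 after MI ran from 0.47 to 0.98 and Cd300ld from 0.17 to 0.53.

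Among genes of phagocytic and lipid-handling macrophages, 7 of 11 members were tested and 0 called, with a median of 0.25 at 3 days, or −0.0031 when scaled to all pairs and 0.59 without the P10-MI_3D BZ library of replicate 3, and 0.03 at 7 days. Lgals3, which encodes galectin-3, a lectin of recruited macrophages, read 547, 313, 214 and 265 CPM in the BZ and 310, 131, 205 and 207 CPM in the RZ. It was higher in 4 of 4 pairs (log2 difference 0.44, SE 0.19, limma adjusted p = 0.81), with 0.29 without the BZ and 0.73 without the RZ library of replicate 2 at 3 days. The region over its start, chr14:47370501-47379000, whose core holds the AP-1 and C/EBP matches, was among the 5 higher regions ranked first and read 285, 124, 75.7 and 70.0 CPM in the BZ and 68.4, 54.1, 58.4 and 46.1 CPM in the RZ (log2 difference 0.99, SE 0.302, limma adjusted p = 0.91). That region differed by 0.65 without the BZ library of replicate 2 at 3 days. Spp1, the osteopontin gene, read on all pairs, had 120 and 37.0 CPM in the BZ against 34.6 and 7.21 CPM in the RZ at 3 days. The 7.21 CPM was a single read pair in the RZ library of replicate 3, and the mean log2 difference of Spp1 over both days was 1.03 (SE 0.45). Trem2, a lipid-sensing receptor gene, had 303 and 347 CPM in the BZ against 153 and 161 CPM in the RZ at 3 days and 61.5 and 76.5 CPM against 86.8 and 60.1 CPM at 7 days, a log2 difference of 0.75 (SE 0.364) at 3 days and −0.26 (SE 0.445) at 7 days. Arg1 itself, the arginase gene, differed by 0.02 (SE 0.35) and Igf1, a growth factor gene, by 0.30 (SE 0.262), and leaving out 1 library gave −0.34 to 0.68 for Arg1 and −0.40 to 0.66 for Igf1.

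The region with the second smallest p on the higher side, chr6:123251501-123268500, covers the start of Clec4d, a C-type lectin gene of myeloid cells. It read 404, 267, 115 and 150 CPM in the BZ and 178, 81.1, 68.2 and 98.8 CPM in the RZ, higher in 4 of 4 pairs, and the log2 difference was 0.85 (SE 0.243, limma adjusted p = 0.91). In sham hearts it was 0.41. BZ was above RZ in all 4 pairs in 6.54% of the regions tested and below it in 6.99%. Of the other higher regions, chr9:120492001-120494500 in Eif1b and chr13:43215001-43219000 in an intron of Gfod1 differed by 2.04 and 2.41, and 2 and 3 of their RZ libraries were at 0. The lower regions beside Mrc1 were chr2:30769501-30775000 (−1.63), chr3:142272001-142277000 in Pdlim5 (−1.71), 1 in Cxxc5 (−1.57) and chr8:70438501-70440500 before Crtc1 (−1.74), and in all 4 the BZ library of replicate 2 at 3 days was at 0.

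**Figure D4:**
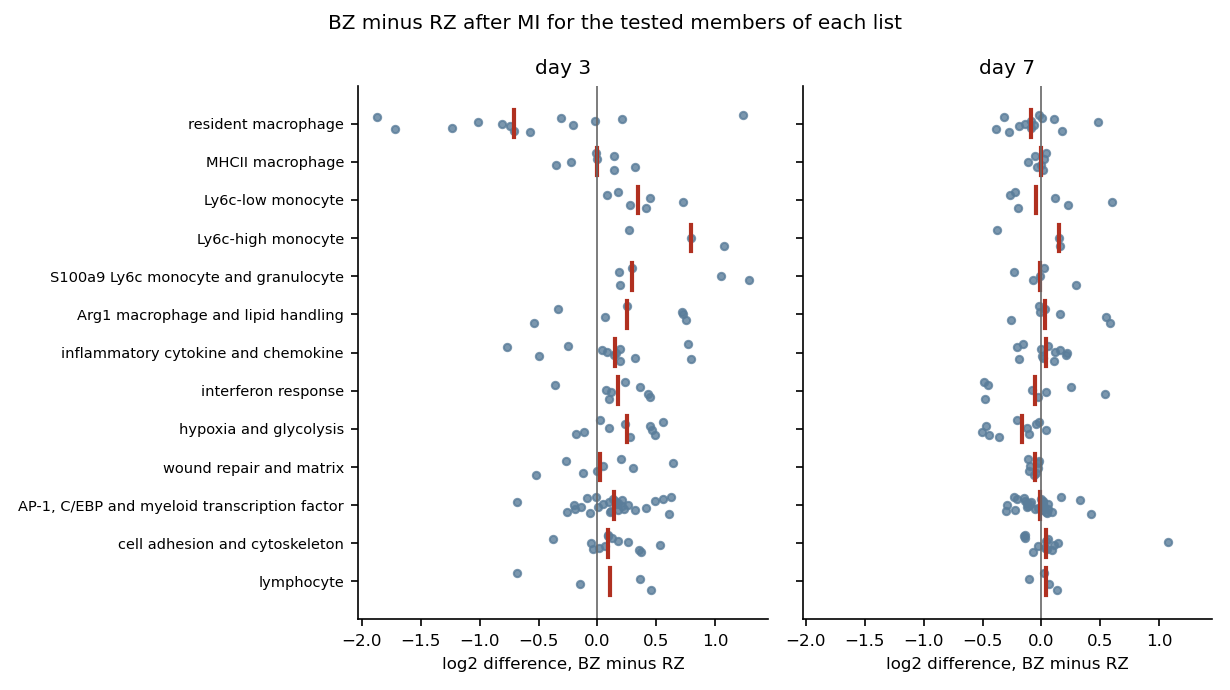
Log2 BZ minus RZ difference (pairs in regions) of each tested member (dots) of the gene lists at 3 days and at 7 days, with the list median as a red bar. At 3 days the resident macrophage median was −0.71 and the median of the 3 Ly6c-high members 0.80, and at 7 days they were −0.09 and 0.15.

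The other lists held 0 called members each. Medians at 3 days and 7 days were −0.00 and −0.01 for MHC class II genes (7 of 7 tested), 0.15 and 0.04 for inflammatory cytokines and chemokines (12 of 14), 0.18 and −0.05 for the interferon response (8 of 12), 0.25 and −0.16 for hypoxia and glycolysis (10 of 12), and 0.02 and −0.05 for wound repair and matrix (8 of 11). Those of AP-1, C/EBP and myeloid transcription factors (28 of 28) were 0.14 and −0.02, and those of adhesion and cytoskeleton genes (13 of 13) 0.09 and 0.04. Of the hypoxia and glycolysis members 8 of 10 were above 0 at 3 days and 9 of 10 below 0 at 7 days, and of the interferon members 7 of 8 were above 0 at 3 days, beside 51.3% and 49.95% of all windows below 0 at 3 and 7 days. On all pairs, where all 12 members of each were tested, 7 of 12 hypoxia and glycolysis members were above 0 at 3 days (median 0.24) and 7 of 12 below 0 at 7 days (median −0.03), and 7 of 12 interferon members were above 0 at 3 days (median 0.20). Scaled to all pairs, which moved the median of all windows at 3 days to −0.29, the 3-day medians turned to −0.12 for cytokines and chemokines, −0.09 for the interferon response, −0.04 for hypoxia and glycolysis, −0.28 for wound repair and matrix, −0.13 for the transcription factors and −0.10 for adhesion and cytoskeleton. Without the P10-MI_3D BZ library of replicate 2 they were 0.0084 for hypoxia and glycolysis, 0.0052 for the transcription factors, 0.0114 for adhesion and cytoskeleton and −0.10 for wound repair and matrix, and without that of replicate 3 cytokines and chemokines were at −0.03. Nfkbia, the inhibitor that NF-κB induces, read 556 and 405 CPM in the BZ against 278 and 234 CPM in the RZ at 3 days, and 254 and 189 CPM against 270 and 247 CPM at 7 days (3-day log2 difference 0.77, SE 0.256). Cxcl2, a neutrophil chemokine gene, differed by 0.17 (SE 0.21), Il18r1, a receptor chain for interleukin-18, by −0.49 (SE 0.331), and the interferon targets Irf7 and Cxcl10 by 0.49 (SE 0.316) and 0.31 (SE 0.21). On all pairs Il18r1 differed by 0.0029 and Irf7 by −0.0032.

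Of the transcription factor list, Mitf, a regulator of lysosomal genes, was higher in 4 of 4 pairs with 566, 469, 396 and 531 CPM against 306, 394, 390 and 380 CPM (log2 difference 0.40, SE 0.151). Jun, an AP-1 subunit gene, differed by 0.51 (SE 0.248). Itgb2, the β2 integrin by which leukocytes leave vessels, read 1405 and 1095 CPM in the BZ at 3 days against 811 and 642 CPM in the RZ, and 722 and 607 CPM against 626 and 667 CPM at 7 days (0.32, SE 0.12), and Actb differed by 0.22 (SE 0.099). The glycolysis genes Pfkfb3 and Pgk1 differed by 0.25 (SE 0.145) and 0.27 (SE 0.2), the matrix gene Emilin2 by 0.30 (SE 0.157), Pdgfb, a growth factor for mesenchymal cells, by −0.30 (SE 0.203), and the antigen presentation genes Cd74 and H2-Ab1 by −0.17 (SE 0.17) and −0.18 (SE 0.306). Leaving out 1 library gave 0.16 to 0.54 for Itgb2, 0.21 to 0.57 for Mitf, 0.32 to 0.95 for Jun and 0.16 to 0.64 for Emilin2. It gave 0.14 to 0.45 for Pfkfb3, 0.12 to 0.36 for Pgk1, −0.87 to 0.14 for Pdgfb, −0.39 to 0.05 for Cd74 and −0.43 to −0.02 for H2-Ab1.

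Markers of other cell types were read beside these lists, and their part in the differences was not tested. On all pairs, the summed level of the 9 non-leukocyte windows tested ranged from 740 to 926 CPM in the BZ and from 745 to 992 CPM in the RZ. Their median log2 difference was −0.06, with 0.20 at 3 days and −0.08 at 7 days. At 3 days 6 of 9 were above 0. At an unadjusted p under 0.05, 2 were higher and 1 lower at 3 days, beside 4.5% and 3.67% of all windows. Myh6, the cardiomyocyte myosin gene, differed by 1.06 (SE 0.44), with a 0 in the RZ library of replicate 3 at 3 days, and Tnnt2, also of cardiomyocytes, by −0.80 (SE 0.463). On all pairs, where all 10 members were tested, the lymphocyte list had a median of 0.32 at 3 days (9 of 10 above 0) and −0.19 at 7 days (9 of 10 below 0). Its median over both days was 0.02, with 6 of 10 above 0. Of all windows counted in this way, 51.0% were below 0 at 3 days and 51.1% at 7 days. The T cell receptor genes Cd3g and Cd247 of the lymphocyte list, named by their p, differed by 0.58 (SE 0.295) on all pairs and by 0.30 in regions, or 0.0099 for Cd247 on all pairs. Granulocyte markers form most of the S100a9 list itself, so granulocytes and S100a9-bearing monocytes were not distinguished in these sums.

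By the smallest p with the same sign in all 4 pairs, the 8 windows named on the higher side were Pom121l2, Gda, Gm11492, Arhgap26, Txnl4b, Ppp2cb, Klhl3 and Pgam1, with log2 differences from 0.70 to 1.5 and limma adjusted p from 0.225 to 0.718. Gda, the guanine deaminase gene (chr19:21391307-21473445), read 586, 313, 120 and 138 CPM in the BZ and 205, 146, 77.6 and 60.1 CPM in the RZ (0.90, SE 0.239). Without the BZ library of replicate 2 at 3 days it differed by 0.58, and without that of replicate 3 by 1.23, where Gda and Ppp2cb were called. All 4 of its regions were higher in both 3-day pairs, as were 26.2% of all regions tested. Txnl4b (1.05) counted a region just before the start of Hp, the haptoglobin gene, which read 110, 101, 8.41 and 30.0 CPM in the BZ and 23.9, 13.5, 13.6 and 0 CPM in the RZ. Pgam1, a glycolytic enzyme gene (0.70, SE 0.21), read 283, 377, 195 and 281 CPM against 170, 117, 155 and 133 CPM. Without the RZ library of replicate 2 at 3 days, Pgam1 differed by 1.1, Arhgap26 by 1.20 in place of 0.75, and Gm11492 by 0.59 in place of 0.94. On all pairs in the window Pom121l2 differed by 0.91, Arhgap26 by 0.37, Txnl4b by 0.68 and Klhl3 by 0.46. The window of Gm11492 held the promoter region of Mtmr4 and that of Klhl3 the promoter regions of Hnrnpa0 and Idnk, so the gene that names a window need not be the one that carries the mark.

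On the lower side the windows were Fam184a, Olfr281, Gm10647, Mgl2, Ablim3, Gpr20, Tmem236 and Tm4sf5, with log2 differences from −1.77 to −0.41 and limma adjusted p from 0.154 to 0.718. Gpr20 (−0.77, SE 0.236) counted a region in an intron of Ptp4a3, a phosphatase gene, and read 29.3, 180, 198 and 194 CPM in the BZ and 261, 336, 225 and 274 CPM in the RZ. Gm10647 (−1.60) counted the promoter region of Aph1b, a γ-secretase subunit gene, with 0, 36.0, 53.5 and 40.8 CPM against 66.1, 102, 57.3 and 80.1 CPM. Fam184a, Olfr281, Gm10647 and Ablim3 were at 0 in the BZ library of replicate 2 at 3 days. On all pairs in the window Fam184a differed by −0.33, Gm10647 by −0.65 and Ablim3 by −0.64. Without the BZ library of replicate 2 at 3 days Gpr20 differed by −0.38, Tmem236 by −0.14, Gm10647 by −0.90, Olfr281 by −0.89 and Ablim3 by −0.65. Without the BZ library of replicate 3 at 3 days, 7 of the 8 lower windows, Tm4sf5 being the exception, were called, with −1.65 for Gpr20 and −0.90 for Tmem236.

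**Figure D5:**
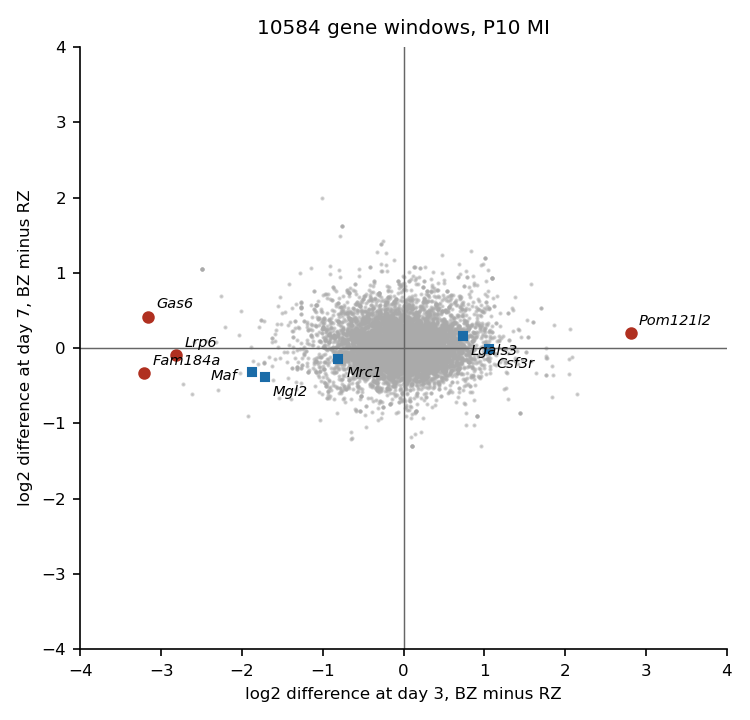
Log2 BZ minus RZ difference at 3 days (x axis) and at 7 days (y axis) of the 10584 windows tested. Red points are the 4 windows called at 3 days, blue squares Mrc1, Mgl2, Maf, Csf3r and Lgals3, and the cloud shows no slope (Pearson r = −0.0037 over windows that share pairs).

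Windows that differed most at 3 days were about evenly split in sign at 7 days. Of the 124 windows higher in the BZ at 3 days with an unadjusted p under 0.01, 56 (45.2%) were higher at 7 days, beside 50.05% of all windows, and of the 91 lower ones 40 (44%) were lower, beside 49.95%. The difference between days was called for 6 windows (0.0567%, with 635, or 6%, at an unadjusted p under 0.05), all with a larger BZ minus RZ value at 7 days, while limma-trend called 0, with 845. These were Gas6, with a day 7 minus day 3 difference of 3.59 (SE 0.725, limma adjusted p = 0.0255), and 5 windows around H2-M3 with identical counts (H2-M3, Olfr97, Olfr98, Olfr99 and Olfr101), which differed by 3.54 (SE 0.746, limma adjusted p = 0.0255). H2-M3, a nonclassical MHC class I gene at chr17:37270220-37274484, read 0 and 36.0 CPM in the BZ and 73.1 and 58.4 CPM in the RZ at 3 days, and 74.8 and 112 CPM in the BZ and 40.6 and 40.0 CPM in the RZ at 7 days. The call was lost for Gas6 in 7 and for H2-M3 in 6 of the 8 fits that left out 1 library. Without the P10-MI_3D BZ library of replicate 2 the day difference was 1.32 for Gas6 and 1.70 for H2-M3, and without that of replicate 3 it was 5.11 and 5.03. The next windows by p did not pass: Lrp6 (2.73) on the side of higher values at 7 days, and Zfp511 (−2.48), Cd300lb (−0.89) and Rasa2 (−2.76) on the other. Leaving out the same 2 BZ libraries moved Lrp6 to 0.30 and to 5.39, where it was called. Without the RZ library of replicate 2 at 3 days, Cd300lb differed by −1.41 and Rasa2 by −4.21. Rasa2 was called there and without the BZ library of replicate 2, and it differed by −1.48 without the BZ library of replicate 3, where Zfp511 was called, all at 3 days. On all pairs in the window the day difference was 1.88 for Gas6, 1.52 for H2-M3, 1.06 for Lrp6, −1.55 for Zfp511, −0.56 for Cd300lb and −0.48 for Rasa2, with 0 of them called. Cd300lb, an activating receptor gene of myeloid cells, read 1064 and 976 CPM in the BZ and 689 and 409 CPM in the RZ at 3 days, and 679 and 816 CPM against 737 and 954 CPM at 7 days.

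The same cut in sham hearts served as the control for position in the heart. In sham, limma voom called 0 of 10584 windows, with 478 (4.52%) at an unadjusted p under 0.05 and 329 by limma-trend, which called 0. The difference between MI and sham was called for 0 windows, with 307 (2.9%) at an unadjusted p under 0.05 and 363 by limma-trend, which called 0. Over regions both counts were 0, with 648 (4.89%) and 463 (3.5%) at an unadjusted p under 0.05, and limma-trend called 0, with 449 and 457. Of the 75 windows higher in the BZ after MI with an unadjusted p under 0.01, 50 (66.7%) were higher in sham too, beside 49.6% of all windows, and of the 61 lower ones 40 (65.6%) were lower, beside 50.4%. The correlation of the MI and sham differences over all windows was r = 0.153, with MI and sham libraries of a number on the same flow cells and windows that overlap. The smallest p for MI minus sham in each direction belonged to Phb (1.55, SE 0.455), Med21 (0.77, SE 0.232) and Cutal (1.03, SE 0.328), and to Fam184a (−1.78, SE 0.52), Trappc3 (−0.70, SE 0.207) and Ablim3 (−1.81, SE 0.537), all at a limma adjusted p of 0.999. Phb differed by 0.32 without the P10-MI_3D RZ library of replicate 3, by 2.51 without that of replicate 2, where it was called. On all pairs in the window Phb differed by 0.13, Fam184a by −0.18, Cutal by 0.67 and Ablim3 by −1.19. Cutal differed by 0.52 without the P10-Sham_7D BZ library of replicate 1, Ablim3 by −1.03 without the P10-MI_3D BZ library of replicate 2, and Med21 by 0.51 without the P10-MI_3D RZ library of replicate 2. Mgl2 differed by −1.12 (SE 0.335) between MI and sham, and Csf3r by 0.48 and Cxcr2 by 0.01.

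The letters of the regions that differed at 3 days are given as a description. Of 103 regions with a core that were higher in the BZ with an unadjusted p under 0.01, 13 (12.6%) held an AP-1 match and 11 (10.7%) a C/EBP match, beside 6.51% and 7.08% of the 13215 tested regions with a core. Of 81 lower regions, 8 (9.88%) held an AP-1 match and 5 (6.17%) a C/EBP match. The core lay within 1 kb of a gene start in 35% of the higher and 39.5% of the lower regions, beside 52.6% of all tested, and none of these shares was tested. The other motifs searched were those of MAF, of PU.1 (GAGGAAGT), of HIF (ACGTG), of IRF and of MITF (the E-box CACGTG, which contains the HIF letters). Among the higher regions they were held by 3.88%, 6.80%, 8.74%, 1.94% and 2.91% in that order, among the lower ones by 6.17%, 1.23%, 14.8%, 3.70% and 8.64%, and among all tested by 3.97%, 4.02%, 15.7%, 2.38% and 5.27%.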

How the data were processed

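H3K27ac CoBATCH was measured in CD45+F4/80+ cells of heart zones. The authors dissociated tissue in buffers with sodium butyrate, which slows the loss of histone acetylation, split barcodes with their own scripts, trimmed with Cutadapt, aligned to mm10 with Bowtie2, filtered by mapping quality with Samtools and removed duplicates with Picard. The submitters' processing notes also name MACS2 2.2.7.1 and deepTools. The deposited files list aligned reads (position, name, mapping quality score, strand), with scores between 21 and 44, so multicopy genes may be under-counted.

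Repeated lines were dropped and reads of 1 name counted as 1 pair. Regions were 500 bp bins at 4 times or more the mean of covered bins over the 42 libraries weighted by group, joined within 1000 bp (27160 regions). Windows with a mean of 10 pairs and regions with a mean of 3 pairs were tested. Pairs in regions were scaled by TMM factors (0.951 to 1.05) and fitted with limma voom 3.58.1 in R 4.3.3 on the 24 P10 libraries (8 pools as fixed block, zone effects per surgery and day, residual df 8), two-sided, with Benjamini-Hochberg adjustment over all tested features and a threshold of 0.05. The design was written for counts, and these were counted here from the deposited reads. A list gene with too few pairs in regions was read on all pairs in its window. The figures used matplotlib 3.10.9. The fit was tested on simulated counts.

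Groups came from the titles, because the treatment text of the sham samples describes MI. Windows were named by rule: up to 8 per direction by p with 1 sign in all 4 pairs, 5 for regions, 3 for differences between contrasts, 2 members per list when none passed, and a set of marker genes. Of these, 1 region is not reported here. The members and lists were chosen with earlier results of these data known. The study calls its replicates biological and pooled hearts for each zone. The fixed block takes out the spread between pools. The p-values therefore rest on how zone differences varied from pool to pool, over the MI, sham and IZ libraries fitted together. In limma the variance of each feature was also drawn toward that of the other features. The prior df for this was 48.3 for windows and 172.7 for regions, beside a residual df of 8. Without molecular identifiers, intervals and floors cover counting error only. Replicate 2 libraries of the comparison held 15.6 to 19.1% repeated lines and 12.0 to 15.6% names with a single mate, which the other libraries did not. Alternatives covered the block, the libraries fitted, the scaling, the filters, the variance model, the pairs counted and each library left out.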

Additional observations from a re-analysis of the deposited data

Results flagged for a closer look

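Over 102 groups of 4 libraries, 6 values had a library whose gap to the nearest other, as a share of the range, passed Dixon's limit of 0.829, and chance flags about 1 in 20 groups. In the BZ these were Gpr20 (0.896, lowest in replicate 2 at 3 days) and the region chr3:142272001-142277000 in Pdlim5 (0.859, highest in replicate 2 at 7 days). In the RZ these were the Y-linked share (0.872, highest in replicate 3 at 3 days), the region chr13:43215001-43219000 (1.000, 3 libraries at 0), the region in Cxxc5 (0.867, lowest in replicate 2 at 3 days) and S100a8 (0.890, highest in replicate 2 at 3 days).

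The BZ minus RZ difference differed between 7 and 3 days for Gas6 by 3.59 and for Olfr97, Olfr98, H2-M3, Olfr99 and Olfr101 by 3.54 each on the log2 scale, at a limma adjusted p under the threshold. The last 5 windows counted the same pairs, so they are a single observation.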

How the results depend on the processing

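No window or region named by its p changed sign under the alternatives run. Of the 41 list members described, 10 were read on all pairs and were not run, and 23 of the other 31 kept the sign of their mean over both days. Arg1 was at −0.0337 with the BZ and RZ libraries alone, −0.0318 scaled to all pairs, −0.0065 with windows of a mean of 1 pair and −0.0346 with both mates required, and on all pairs Il18r1 was at 0.0029 and Irf7 at −0.0032. Leaving out each library gave −0.61 to 0.0692 for C1qa, −0.41 to 0.11 for Dab2, −0.34 to 0.68 for Arg1, −0.40 to 0.66 for Igf1, −0.87 to 0.14 for Pdgfb and −0.39 to 0.0517 for Cd74. On pairs in regions the medians of the resident, Ly6c-low, Ly6c-high and S100a9 lists over both days and at 3 days kept their sign, while each other list had a median, over both days or at 3 days, that changed sign under at least 1 alternative. The 7-day medians were not run under them. The 3-day calls, 1 higher and 3 lower, were 14 higher and 0 lower without the RZ library of replicate 2. Among the named windows, regions and members, 1454 values kept their sign and side of the threshold, 48 calls were lost, 36 were gained and 14 values changed sign. List medians moved by more than their spread over pairs in 58 cases and by less in 502. The 3-day count of 4 became 195 (127 higher, 68 lower) and the mean count of 0 became 30 (11, 19) when the BZ and RZ libraries alone were fitted with the replicate block, and the day difference became 36 (20, 16). Scaling to all pairs, which moved the median of all windows to −0.29 at 3 days and −0.23 for MI minus sham, gave 30 (1, 29) at 3 days, 2 in the mean and 11 for the day difference, so the split between higher and lower calls depends on scaling. At 3 days the count was 2 with windows of a mean of 1 pair, 53 (18, 35) by limma-trend, 7 with library quality weights, 0 with both mates required, 15 (4, 11) with regions at 6 times the mean and 0 on all pairs in the window. Under 4 of these (a mean of 1 pair, limma-trend, 6 times the mean, all pairs) the day difference gave 0. On all pairs, 1 window was called in sham and 1 in MI minus sham. The cause of these changes was not tested.

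Leaving out each library gave 0 to 58 windows in the mean, 1 to 212 at 3 days, 0 to 1 at 7 days, 0 to 66 for the day difference, 0 to 0 in sham and 0 to 4 for MI minus sham, and over regions 0 to 1 in the mean after MI, 0 to 1 in sham and 0 to 0 for MI minus sham. The highest counts, 58, 212 and 66, came without the P10-MI_3D BZ library of replicate 3, which also gave 16 regions at 3 days and 2 for the day difference, against 4 and 2 with the BZ and RZ libraries alone, and without the RZ library of replicate 2 the mean gave 3.

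The replicate number was used as a block without proof of a shared pool: the correlation of BZ and RZ deviations from the group means was 0.00714 at 3 days and 0.162 at 7 days after MI, and 0.0307 and 0.209 in sham. With no replicate block the counts were 0 in the mean, 3 at 3 days and 6 for the day difference, and with a random replicate block (correlation 0.107) they were 0, 7 and 6. Depth limits the 3-day values, since 1 pair was worth up to 14.6 CPM.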
